A study of Mus musculus with 28 samples.

Results

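A set of 10 genes of the fibroblast extracellular matrix was followed through a chemical reprogramming series: Fn1, Tnc, Fbn1, Postn, Thbs1, Thbs2, Fbln2, Eln, Lox and Efemp1. They were taken by symbol from the deposited tables, and all 10 were found among the 31673 genes listed there. The study converted mouse fibroblasts into chemically induced endodermal progenitor cells (ciEPC) and from these into hepatocyte-like cells (ciHep), and sequenced RNA of 28 libraries. All 9 groups carried an Oct4-GFP transgenic allele on a background of CBA/CaJ X C57BL/6J, and none of the labels names the compounds used. In MEF, MEF_ciEPC, MEF_ciHep, ESC and ESC_EPC this allele was combined with 129Sv/Jae, which the strain labels of MNF, MNF_ciEPC, MNF_ciHep and pHep do not mention. MEF were E13.5 embryonic fibroblasts at passage 2 (3 libraries) and MNF were neonatal dermal fibroblasts at passage 2 (2 libraries). MEF_ciEPC were 10 libraries in 2 numbered series, with series 1 sampled at passages 2, 3, 4, 6, 10 and 22 and series 2 at passages 1, 5, 10 and 22. MNF_ciEPC were 2 libraries at passages 2 and 3, whose cell type and title name MNF while their source name reads MEF. MEF_ciHep (3 libraries) and MNF_ciHep (2 libraries) were made from ciEPC of passages 3 to 10. The references were OG2 embryonic stem cells at passage 5 (ESC, 2 libraries), endodermal progenitors made from embryonic stem cells of passages 10 to 15 (ESC_EPC, 2 libraries) and primary hepatocytes of adult liver at passage 0 (pHep, 2 libraries).

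The matrix of connective tissue is a network of collagen fibrils, elastic fibres and adhesive glycoproteins that fibroblasts secrete and assemble outside the cell. Fibronectin fibrils, pulled into place by integrins, serve as a scaffold on which other components are laid down. Fibrillin microfibrils carry elastin and bind latent TGF-beta complexes, fibulins link the fibre components, and lysyl oxidase cross-links elastin and collagen. Tenascins, periostin and thrombospondins are matricellular proteins, which modulate adhesion and growth factor activity. Liver is a special case for fibronectin, since hepatocytes secrete the plasma form of this protein into blood.

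Libraries held 1439670 to 6133147 expected counts, and 16061 genes including all 10 members had enough counts to be tested. Subtracting the effective length from the gene length, which reflects the read or fragment length, gave 3 classes of library. Fibroblasts, MNF_ciEPC and ESC had 74.3 to 74.5 bases, ESC_EPC had 186.6 to 195.7, and MEF_ciEPC, pHep and the ciHep of either origin had 49.5 to 50.6. Where a comparison crosses these classes, the cell type and the sequencing run type cannot be told apart. This applies to MEF_ciEPC against MEF, MNF_ciHep against MNF_ciEPC, MNF_ciEPC against MEF_ciEPC, ciHep against fibroblasts, every comparison with ESC_EPC and both tests of origin. The strain labels differ between MEF and MNF and between the cells made from them, so origin and strain cannot be told apart. Cell type and strain cannot be told apart in MEF_ciHep against pHep. Some libraries departed from what their labels name. In MNF_ciHep the summed level of hepatocyte markers was 46.9 to 158 TPM (transcript level scaled by gene length and library size), against 11720 to 25410 in MEF_ciHep and 15790 to 28880 in pHep, and Serpina1a, Cps1, Cyp3a11 and G6pc were listed at 0 in both libraries. The summed fibroblast markers of MNF_ciHep were 2028 to 4701 TPM, with no marker of that list at 0. The MEF_ciEPC library of series 2 passage 22 had 13850 TPM of pluripotency markers, above the 9289 to 9442 of ESC, and the library of series 1 passage 2 was the highest of its group in most members. Results that rest on the last 2 libraries are given with and without them. The RNA is from bulk cultures, so fewer cells of a type and less RNA per cell cannot be told apart.

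The 4 members whose counts fell to between 0 and 3 in MNF_ciEPC from 2964 or more in MNF and for which a promoter was in the RefSeq table (GRCm38.p6) were Tnc, Postn, Thbs2 and Efemp1. Tnc, encoding tenascin-C, lies at chr4:63959785-64047015 on the minus strand. Postn, encoding periostin, lies at chr3:54361109-54391037 on the plus strand. Thbs2, encoding thrombospondin 2, lies at chr17:14665500-14694235 on the minus strand, and Efemp1, encoding fibulin-3, lies at chr11:28853204-28926743 on the plus strand (GENCODE M21, GRCm38). Their promoter sequences are shown because these genes went from abundant to almost no counts in the same step. Each runs 5′ to 3′ on the strand of the gene and ends at the base before the RefSeq start. Capitals mark matches to the motifs searched.
Tnc, chr4:64047016-64047265, minus strand: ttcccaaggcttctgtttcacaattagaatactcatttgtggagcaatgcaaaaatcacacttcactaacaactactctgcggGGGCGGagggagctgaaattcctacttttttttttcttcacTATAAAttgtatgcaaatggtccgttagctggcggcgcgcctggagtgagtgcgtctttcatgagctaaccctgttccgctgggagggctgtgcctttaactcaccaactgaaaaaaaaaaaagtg
Postn, chr3:54360857-54361106, plus strand: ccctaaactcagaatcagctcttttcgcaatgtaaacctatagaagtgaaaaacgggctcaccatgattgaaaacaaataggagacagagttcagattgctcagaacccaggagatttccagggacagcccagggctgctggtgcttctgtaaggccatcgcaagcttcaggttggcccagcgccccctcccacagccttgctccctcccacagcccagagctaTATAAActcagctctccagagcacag
Thbs2, chr17:14694263-14694512, minus strand: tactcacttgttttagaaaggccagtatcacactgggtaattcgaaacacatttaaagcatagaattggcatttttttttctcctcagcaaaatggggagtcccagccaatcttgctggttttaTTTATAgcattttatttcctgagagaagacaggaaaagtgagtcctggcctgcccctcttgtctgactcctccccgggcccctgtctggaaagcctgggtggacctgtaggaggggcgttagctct
Efemp1, chr11:28852955-28853204, plus strand: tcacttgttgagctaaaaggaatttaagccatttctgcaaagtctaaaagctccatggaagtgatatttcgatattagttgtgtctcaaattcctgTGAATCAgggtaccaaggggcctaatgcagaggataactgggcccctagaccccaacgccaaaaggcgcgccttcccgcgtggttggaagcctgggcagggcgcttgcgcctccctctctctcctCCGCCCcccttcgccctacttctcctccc
The motifs were searched on both strands in the 250 bases before the start of 6 matched members, which also included Fbn1 and Fbln2. The TATA box letters TATAAA were in 3 of the 6 (Tnc, Postn and Thbs2) and in 12.4% of the 32851 windows of the same length in the table. In Postn the match lay 26 bases from the start, and in Tnc and Thbs2 it lay 126 bases from it, in Thbs2 on the opposite strand. The AP-1 letters TGANTCA were in Efemp1 alone, 154 bases from the start, and in 6.75% of all windows. The GC box letters GGGCGG were in Tnc, Fbn1, Fbln2 and Efemp1, against 32.7% of all windows. Neither the TEAD letters GGAATG (12.6% of all windows) nor the CArG box (1.47%) were in any of the 6. The G and C content of the 4 windows printed was 44.8% in Tnc, 52.0% in Postn, 46.8% in Thbs2 and 53.6% in Efemp1, and the median of all windows was 52.4%. The motif matches were not shared by all 4 genes, and they are a description of letters only.

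Of the 10 genes 9 had over 100 TPM in every fibroblast library, Eln being the exception. Together the 10 took 1.05 to 1.52% of all TPM in MEF and 1.88 to 1.90% in MNF. Levels are given in TPM, which is scaled by gene length, so that genes can be compared. Fn1 (chr1:71585520-71653200, minus strand), the gene of fibronectin, had 3356.80, 3086.55 and 4212.24 TPM in the 3 MEF libraries and 2976.95 and 3300.53 TPM in the 2 MNF libraries. The groups overlapped. By mean level Fn1 ranked 23rd of 31673 genes in MEF and 27th in MNF. Thbs1 (chr2:118111876-118127133, plus strand), the gene of thrombospondin 1, an activator of latent TGF-beta, had 3705.02, 2266.08 and 3287.38 TPM in MEF and 4060.06 and 3919.46 TPM in MNF. It stood at rank 27 in MEF and 19 in MNF, next to fibronectin. Fbln2 (chr6:91212455-91272540, plus strand), the gene of fibulin-2, which binds fibronectin and fibrillin, had 1969.75, 1188.37 and 2177.83 TPM in MEF and 3517.56 and 3840.38 TPM in MNF.

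Tnc had 1251.73, 1075.10 and 1595.94 TPM in MEF and 807.90 and 1052.19 TPM in MNF. Lox, the gene of lysyl oxidase, had 1325.94, 1033.93 and 1560.77 TPM in MEF and 1976.51 and 1721.91 TPM in MNF. The libraries of these genes did not overlap between the 2 kinds of fibroblast, but the gaps were narrow. Postn, which encodes a matricellular protein that binds collagen, had 588.19, 752.63 and 1167.80 TPM in MEF and 2956.92 and 2540.25 TPM in MNF. Thbs2, whose protein acts in collagen fibril assembly, had 252.05, 282.38 and 399.63 TPM in MEF and 1254.68 and 1186.11 TPM in MNF. Both were higher in each MNF library than in any MEF library. Fbn1 (chr2:125300594-125507993, minus strand), the gene of the microfibril protein fibrillin-1, had 320.81, 340.74 and 484.53 TPM in MEF and 897.57 and 998.56 TPM in MNF. Efemp1 had 117.71, 172.11 and 124.50 TPM in MEF and 252.52 and 396.90 TPM in MNF. Eln (chr5:134702593-134747323, minus strand), the gene of tropoelastin, the core of elastic fibres, had 61.85, 272.76 and 132.40 TPM in MEF and 29.83 and 11.24 TPM in MNF, the reverse order of the other elastic fibre genes.

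The comparison of MNF with MEF asks how far the starting cells differed. A gene was called when its Benjamini-Hochberg adjusted p in edgeR's quasi-likelihood test was under 0.05 over all genes tested and its change was at least 2-fold. Eln alone of the 10 was called, lower in MNF by 8.15-fold (a log2 change of -3.03 ± 0.55, SE, n = 2 against 3, adjusted p = 0.000993), beside 7.81% of all genes called lower. Thbs2 (log2 change 1.91, adjusted p = 0.139), Postn (1.52, adjusted p = 0.13) and Fbn1 (1.25, adjusted p = 0.11) had libraries that did not overlap and yet missed the threshold. The spread behind these p-values was estimated over all 20 samples of the 9 groups, not from the fibroblast libraries alone. In a fit of the compared groups only, 5 members were called, 4 higher and 1 lower in MNF. The labels do not say whether libraries of a group came from separate cultures, so the spread between libraries may be technical.

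**Figure D1:**
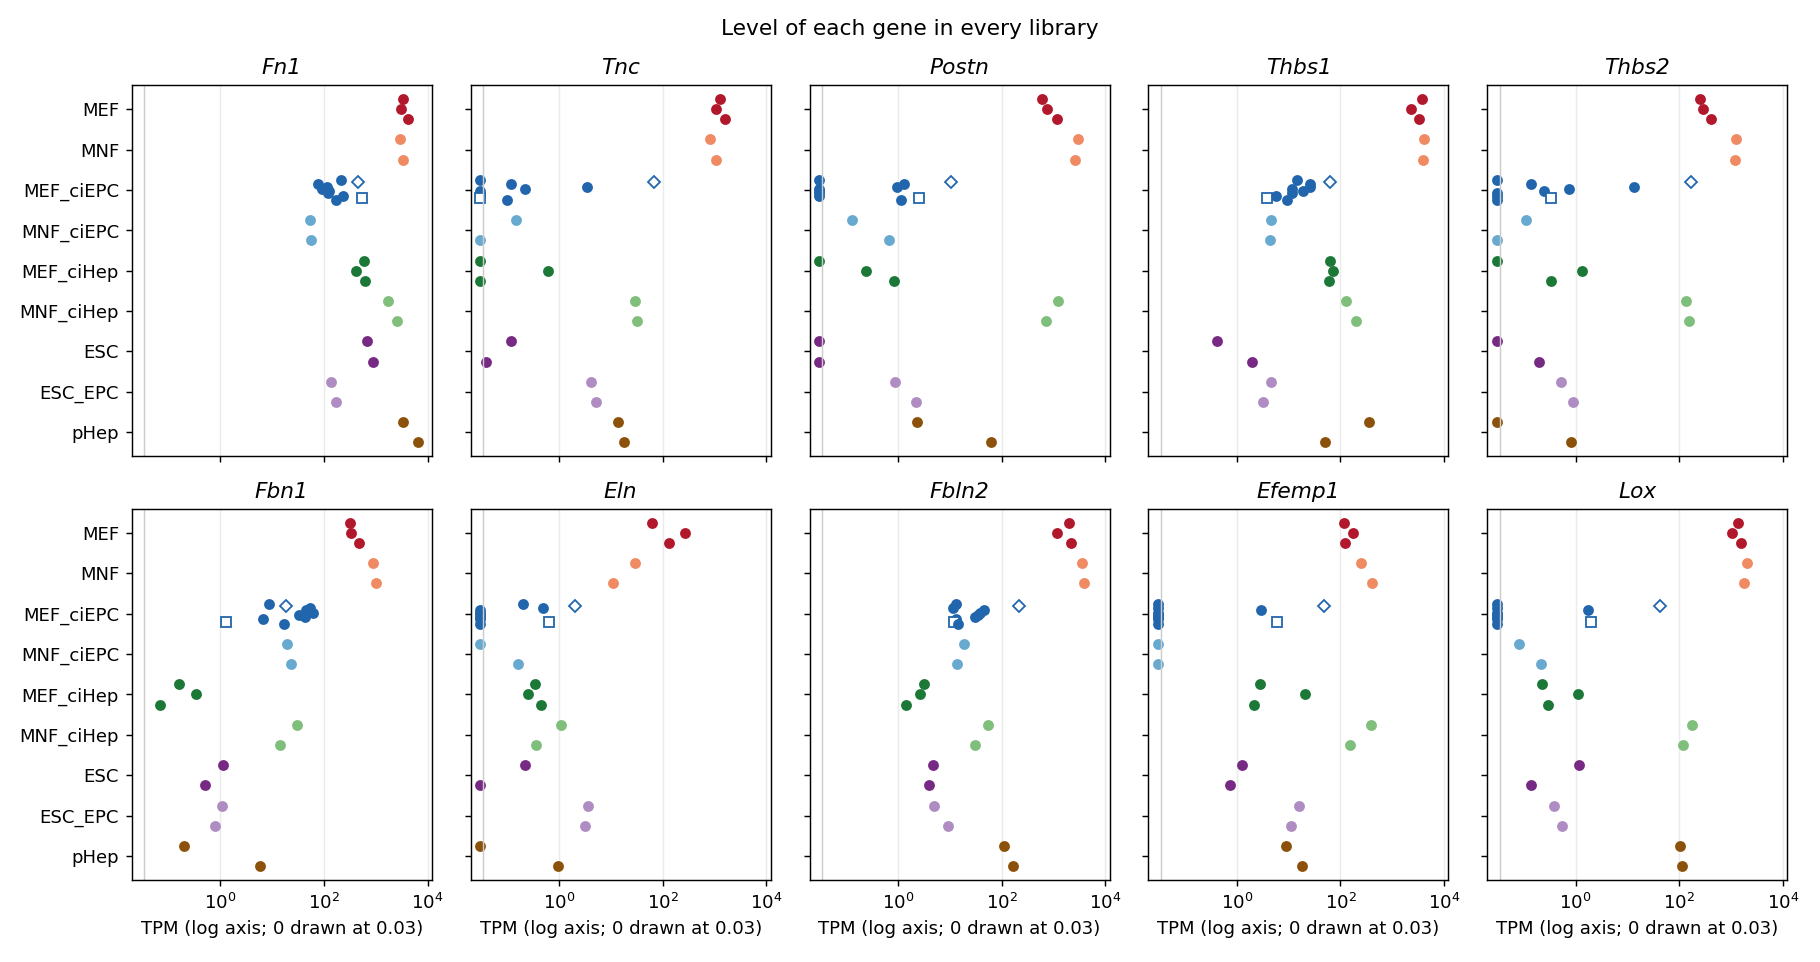
Level of each gene in every library in TPM on a log axis, with libraries at 0 drawn at 0.03; each point is 1 library, the open diamond is MEF_ciEPC series 1 passage 2 and the open square series 2 passage 22. All 10 genes are highest or among the highest in MEF and MNF and low in both ciEPC groups, and 8 of 10 were called higher in MNF_ciHep than in MEF_ciHep, the exceptions being Thbs1 and Eln.

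Reprogramming to ciEPC was the step at which all 10 genes fell. In MEF_ciEPC the 10 genes together had 169 to 1089 TPM (median 232) against 12850 ± 2338 TPM (mean ± SD, n = 3) in MEF, and in MNF_ciEPC 98.1 ± 0.12 TPM (n = 2) against 18850 ± 168 TPM in MNF. All 10 were called lower in MEF_ciEPC against MEF, where 15.8% of all genes were called lower and 33.4% in either direction. All 10 were also called lower in MNF_ciEPC against MNF, where 21.9% of all genes were called lower and 40.2% in either direction. The median log2 change of the 10 was -6.66 from MEF, with a median of 0.12 over all genes, and -11.7 from MNF (-10.1 with the gene at 0 counts set to 3 counts over the group), with a median of 0 over all genes. The summed fibroblast markers moved with these genes, from 11630 to 13920 TPM in MEF to 49.7 to 1014 TPM in MEF_ciEPC and from 27320 to 28950 TPM in MNF to 483 to 593 TPM in MNF_ciEPC. Of the 14 markers 13 fell in each comparison. Of this list Pdgfra, which encodes a growth factor receptor, rose in MEF_ciEPC by 2.21 on the log2 scale (adjusted p = 0.00046), while Twist2, Dpt, Lum and Fap were at 0 in MNF_ciEPC. How far a changed makeup of the cultures entered these falls was not tested.

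Among the adhesive glycoproteins, Fn1 kept the most. It had 76.09 TPM in the lowest MEF_ciEPC library, 150 at the median and 545.9 in the highest, and 55.25 and 55.59 TPM in MNF_ciEPC. Every ciEPC library lay below every fibroblast library, and the fall was 22.3-fold from MEF (log2 change -4.48 ± 0.36, adjusted p = 1.54e-07) and 72.2-fold from MNF (-6.17 ± 0.40, adjusted p = 2.47e-08). Tnc had 0 TPM in the lowest MEF_ciEPC library, 0.05 at the median and 67.96 in the highest, and 0.15 and 0 TPM in MNF_ciEPC. Tenascin-C transcripts thus fell 249-fold from MEF (-7.96 ± 1.21, adjusted p = 6.93e-05). In MNF_ciEPC 3 counts remained of Tnc against 31341 in MNF, a ratio of 13154 with a 95% interval of 4500.5 to 63787 that covers counting error only (adjusted p = 8.52e-06). Postn had 0, 0.475 and 10.59 TPM as the lowest, median and highest of MEF_ciEPC, and 0.13 and 0.67 TPM in MNF_ciEPC. Periostin fell 902-fold from MEF (-9.82 ± 1.17, adjusted p = 9.66e-06). From MNF it went from 34706 counts to 3, a ratio of 14566 with an interval of 4983.8 to 70635 (adjusted p = 2.97e-06).

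The 2 thrombospondins differed in how much was left. Thbs1 had 3.80, 13.21 and 63.75 TPM as the lowest, median and highest of MEF_ciEPC, and 4.59 and 4.37 TPM in MNF_ciEPC, so every ciEPC library still held some. It fell 209-fold from MEF (-7.70 ± 0.87, adjusted p = 4.1e-06) and 965-fold from MNF (-9.91 ± 0.98, adjusted p = 8.62e-07). Thbs2 had 0, 0.195 and 165.67 TPM in MEF_ciEPC, a range set by series 1 passage 2, and 0.11 and 0 TPM in MNF_ciEPC. Its fall was 23.3-fold from MEF (-4.54 ± 1.13, adjusted p = 0.00399). From MNF it went from 34711 counts to 2, a ratio of 21852 with an interval of 6048.8 to 180450 (adjusted p = 2.1e-05). Without the series 1 passage 2 and series 2 passage 22 libraries, the change from MEF was -7.47 for Thbs2, -11.4 for Tnc, -8.12 for Efemp1 and -12.3 for Lox, and all 10 genes were still called lower.

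The elastic fibre genes split by whether any transcript was left in ciEPC. Fbn1 had 1.33, 25.67 and 62.21 TPM as the lowest, median and highest of MEF_ciEPC and 19.25 and 23.29 TPM in MNF_ciEPC, and Fbln2 had 11.39, 22.62 and 215.95 TPM and 18.62 and 13.71 TPM. Both were detected in all 12 ciEPC libraries. Fbn1 fell 16.5-fold from MEF (-4.04 ± 0.68, adjusted p = 0.000162) and 50.9-fold from MNF (-5.67 ± 0.75, adjusted p = 1.47e-05), and Fbln2 48.7-fold (-5.60 ± 0.53, adjusted p = 6.4e-07) and 273-fold (-8.09 ± 0.60, adjusted p = 6.96e-08). Eln, by contrast, was at 0 in 6 of 10 MEF_ciEPC libraries, reached 2.03 TPM at most, and had 0 and 0.16 TPM in MNF_ciEPC. It fell 584-fold from MEF (-9.19 ± 0.80, adjusted p = 3.13e-07), and from MNF it went from 367 counts to 1, a ratio of 462 with an interval of 82.4 to 18300 (adjusted p = 1.27e-05). Efemp1 was at 0 in 7 of 10 MEF_ciEPC libraries, reached 49.01 TPM, and was at 0 in both MNF_ciEPC libraries. It fell 31.0-fold from MEF (-4.96 ± 0.88, adjusted p = 0.00033). With no counts in MNF_ciEPC against 2964 in MNF it was at least 1244-fold lower there (adjusted p = 1.57e-05), taking 3 counts over the group as the floor. The cross-linking enzyme gene Lox was at 0 in 7 of 10 MEF_ciEPC libraries, reached 41.83 TPM and had 0.08 and 0.22 TPM in MNF_ciEPC. Its fall was 356-fold from MEF (-8.48 ± 0.85, adjusted p = 1.29e-06), and from MNF it went from 35136 counts to 3, a ratio of 14746 with an interval of 5045.5 to 71510 (adjusted p = 2.16e-07).

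**Figure D2:**
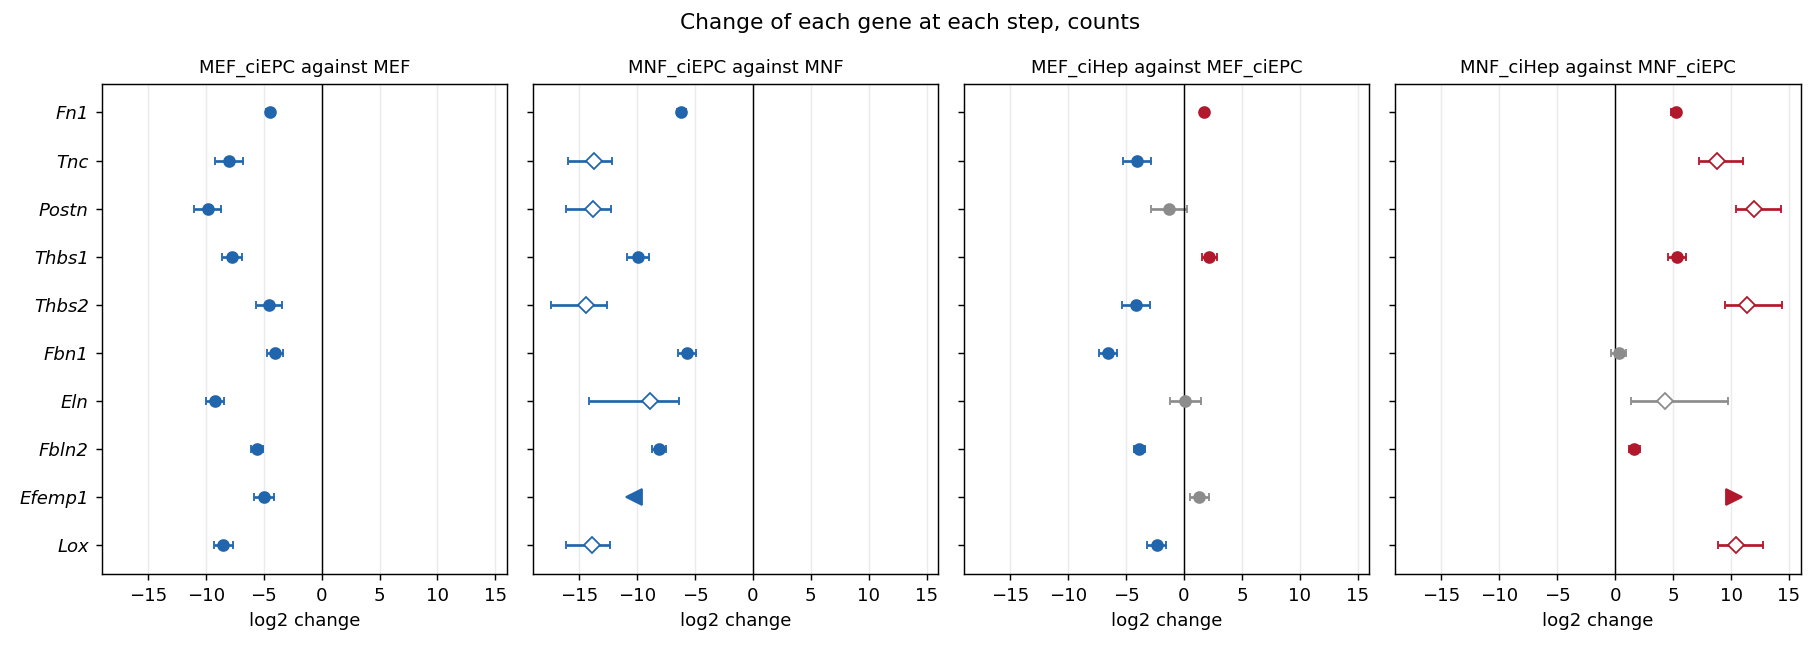
Log2 change of each gene in MEF_ciEPC against MEF, MNF_ciEPC against MNF, MEF_ciHep against MEF_ciEPC and MNF_ciHep against MNF_ciEPC; filled circles are fitted changes with their SE, open diamonds count ratios with 95% intervals, triangles bounds, and blue is called lower, red called higher and grey not called. All 10 genes are blue in both steps to ciEPC, and in the step to ciHep 8 are red from MNF_ciEPC and 2 from MEF_ciEPC. Without MEF_ciEPC series 1 passage 2, 3 genes were called higher and 2 lower in MEF_ciHep against MEF_ciEPC.

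Across the passages of MEF_ciEPC the genes went different ways, as the plot by passage shows. The series 1 passage 2 library kept 53.2% of the MEF mean of Thbs2, 35.5% of Efemp1, 12.8% of Fn1 and 12.1% of Fbln2, but only 1.27% of Postn and 1.30% of Eln. In series 1 at passages 2, 3 and 4, Thbs2 had 165.67, 13.33 and 0.74 TPM, and at passages 6, 10 and 22 it had 0.25, 0 and 0.14 TPM. Over the same 3 first passages Tnc had 67.96, 3.41 and 0.22 TPM, Lox had 41.83, 1.75 and 0 TPM, and Efemp1 had 49.01, 2.98 and 0 TPM. These 4 genes were thus near 0 from passage 4 on, and Lox and Efemp1 stayed at 0 at passages 6, 10 and 22. The collagen gene Col3a1, a fibroblast marker, had 125.4, 6.1 and 0 TPM at passages 2, 3 and 4, while Pdgfra was at 373 TPM at passage 2. The fibroblast markers as a whole list did not go to 0. They summed to 1014, 398.7 and 346 TPM at passages 2, 3 and 4, and to 400.9, 531 and 341.5 TPM at passages 6, 10 and 22.

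Fbln2 took another course, with 215.95, 46.18, 39.20, 35.75, 13.20 and 11.39 TPM from passage 2 to passage 22 of series 1 and 31.02, 14.22, 13.00 and 12.24 TPM from passage 1 to 22 of series 2. In TPM it was lower at each later passage in both series. From passage 10 to 22 of series 1, however, its counts went from 26 to 47 and its CPM (counts scaled to library size) from 9.37 to 17.5, so that the order of these last passages turns with the unit. Fbn1 followed no common course. It had 18.41, 45.38, 62.21, 32.93, 8.62 and 53.52 TPM in series 1, with its peak at passage 4, and 43.18, 17.42, 6.86 and 1.33 TPM in series 2, where it was lower at each later passage. Fn1 had 454.05, 112.95, 92.45, 127.70, 211.63 and 76.09 TPM in series 1 and 121.23, 171.79, 237.32 and 545.90 TPM in series 2. In series 2 fibronectin was thus higher at each later passage while Fbn1, Fbln2 and Thbs1 were lower. Thbs1 had 11.58, 9.31, 5.61 and 3.80 TPM in series 2, and between 11.45 and 63.75 TPM in series 1. The highest Fn1 level belongs to series 2 passage 22, the library with pluripotency markers, and ESC had 684.41 and 882.18 TPM of Fn1. Each series is 1 library per passage, so these courses have no replicate check, and no trend was tested.

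**Figure D3:**
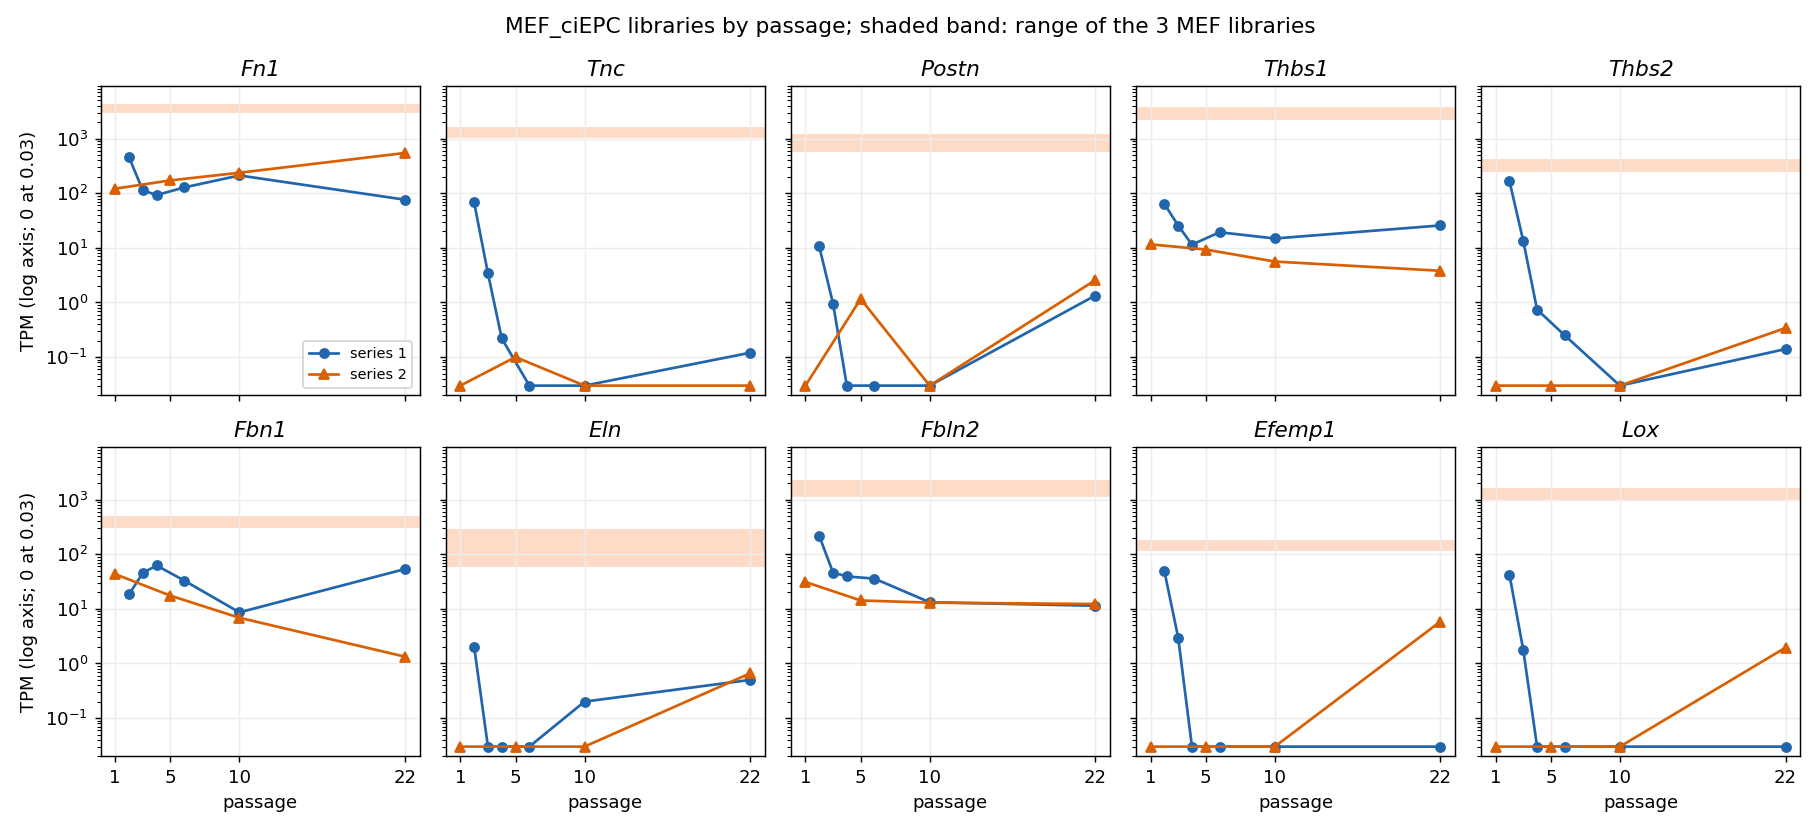
TPM of each gene in the MEF_ciEPC libraries by passage, series 1 as circles and series 2 as triangles, with the range of the 3 MEF libraries shaded. Thbs2, Tnc, Lox and Efemp1 are near 0 in series 1 from passage 4 on, Fbln2 is higher at the first passage of each series than at the later ones, and Fn1 is highest at 545.90 TPM in series 2 passage 22.

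The ciEPC of the 2 origins were compared directly and by a test of whether the fall itself differed. In MNF_ciEPC against MEF_ciEPC 4 of the 10 were called lower, beside 3.49% of all genes: Fn1 (3.67-fold, a log2 change of -1.88 ± 0.33, adjusted p = 0.00516), Tnc (a count ratio of 97.0, interval 33.1 to 472, adjusted p = 0.0381), Thbs2 (ratio 316, interval 87.2 to 2609, adjusted p = 0.0272) and Lox (ratio 36.7, interval 12.4 to 179, adjusted p = 0.0288). The last 3 rested on 1 library. Without series 1 passage 2 Fn1 alone was called (-1.62, adjusted p = 0.0221), and the adjusted p was 0.246 for Tnc, 0.0818 for Thbs2 and 0.296 for Lox. No member was called with either MNF_ciEPC library left out. In the test of the difference between the falls, 5 genes fell further from MNF than from MEF, beside 8.93% of all genes: Fn1 (difference -1.70 ± 0.44 on the log2 scale, adjusted p = 0.0153), Thbs2 (adjusted p = 0.0063), Fbln2 (-2.49 ± 0.61, adjusted p = 0.012), Lox (adjusted p = 0.0147) and Efemp1 (adjusted p = 0.0316). Without series 1 passage 2, 2 of these were called, Thbs2 (adjusted p = 0.0112) and Fbln2 (adjusted p = 0.0213). These calls rested on other libraries too. With series 1 left out as a whole 1 gene was called, and the adjusted p was 0.602 for Thbs2 and 0.079 for Fbln2. Without MNF_ciEPC library 2 it was 1 gene, without MNF_ciEPC library 1 it was 3, and without MNF library 2 it was 3. Fbn1 levels in MNF_ciEPC lay inside the range of MEF_ciEPC, and it was called in neither test (adjusted p = 0.783 between the ciEPC).

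In the step to hepatocyte-like cells the genes parted by origin. From MNF_ciEPC to MNF_ciHep 8 of 10 rose, where 19.5% of all genes were called higher and 30.3% in either direction, and none fell. From MEF_ciEPC to MEF_ciHep 2 rose, where 17.8% of all genes were called higher, and 5 fell, where 14.8% were called lower. This balance rested on the series 1 passage 2 library of MEF_ciEPC, without which 3 rose and 2 fell. With all libraries in the fit the median log2 change of the 10 was 6.99 in the first step and -1.81 in the second. Over all genes the medians were 0.05 and -0.08. A test of the difference between the 2 steps called 9 of 10 higher from MNF, all but Eln (adjusted p = 0.242), beside 17.7% of all genes, and 5 of 10 with series 1 of MEF_ciEPC left out as a whole. This test and both steps share the ciEPC libraries with the falls described above. The marker values that go with MNF_ciHep are those given earlier, and of the 14 fibroblast markers 13 rose from MNF_ciEPC and 14 stood above MEF_ciHep. The stellate cell markers, which mark a liver mesenchymal cell, summed to 92.9 to 198 TPM in MNF_ciHep. Their sum was 80.71 to 125.6 TPM in MEF, which overlaps this range. It was 42.46 to 44.63 TPM in MNF and 24.62 to 29.28 TPM in MNF_ciEPC. Of the 7 stellate cell markers tested, 5 rose from MNF_ciEPC and 6 stood above MEF_ciHep. A part of fibroblasts or stellate cells in the rise was not tested.

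Fibronectin rose in both lines. Fn1 had 608.07, 418.71 and 631.23 TPM in MEF_ciHep, 3.40-fold above MEF_ciEPC (log2 change 1.77 ± 0.31, adjusted p = 0.00031), although 2 MEF_ciEPC libraries lay within this range. In MNF_ciHep it had 1723.82 and 2626.42 TPM, 37.5-fold above MNF_ciEPC (5.23 ± 0.39, adjusted p = 4e-07), with no overlap. The difference between the 2 rises was 3.46 ± 0.44 on the log2 scale (adjusted p = 4.44e-05). Thbs1 was the other gene called higher in both. It had 63.55, 70.69 and 61.27 TPM in MEF_ciHep (4.58-fold, 2.19 ± 0.66, adjusted p = 0.0128), a range that holds the 63.75 TPM of MEF_ciEPC series 1 passage 2. With series 2 of MEF_ciEPC left out it was not called (1.60, adjusted p = 0.115). Thbs1 had 126.94 and 198.97 TPM in MNF_ciHep (40.3-fold over MNF_ciEPC, 5.33 ± 0.81, adjusted p = 0.000125). The difference between its rises was 3.14 ± 0.94 (adjusted p = 0.0174, and 0.0518 without the second MNF_ciHep library).

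The other matricellular genes rose from MNF_ciEPC and were not called higher from MEF_ciEPC in the fit of all libraries. Postn had 0, 0.24 and 0.85 TPM in MEF_ciHep, within the range of MEF_ciEPC (adjusted p = 0.536), and 1218.88 and 702.10 TPM in MNF_ciHep. In MNF_ciHep it went from 3 counts to 5136, a ratio of 4123 with an interval of 1410 to 20000 (adjusted p = 2.57e-05), and became the gene at rank 116 of 31673. Tnc had 0, 0.62 and 0 TPM in MEF_ciHep and 28.85 and 32.31 TPM in MNF_ciHep, 430-fold above MNF_ciEPC by counts (interval 146 to 2093, adjusted p = 0.000589). Thbs2 had 0, 1.34 and 0.33 TPM in MEF_ciHep and 134.94 and 155.23 TPM in MNF_ciHep, a count ratio of 2609 (interval 721 to 21560, adjusted p = 0.000279). Both genes were near 0 in MEF_ciHep, and both were called lower there against MEF_ciEPC (Tnc -4.10 ± 1.21, adjusted p = 0.0113; Thbs2 -4.14 ± 1.19, adjusted p = 0.00983). Those falls rested on series 1 passage 2, without which the changes were -0.58 (adjusted p = 0.63) and -1.17 (adjusted p = 0.311). With all of series 1 left out Thbs2 was called higher in MEF_ciHep (3.27, adjusted p = 0.0485).

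Of the elastic fibre genes, Fbn1 had the largest fall in MEF_ciHep, with 0.16, 0.35 and 0.07 TPM, below every MEF_ciEPC library. It fell 95.2-fold there (-6.57 ± 0.80, adjusted p = 1.06e-05), while in MNF_ciHep it had 30.15 and 14.10 TPM and its change from MNF_ciEPC was 0.30 ± 0.63 (adjusted p = 0.735). Fbln2 had 3.27, 2.63 and 1.47 TPM in MEF_ciHep, also below every MEF_ciEPC library, a 14.7-fold fall (-3.87 ± 0.48, adjusted p = 1.35e-05). In MNF_ciHep it had 55.92 and 31.37 TPM, 3.16-fold above MNF_ciEPC (1.66 ± 0.48, adjusted p = 0.0114, and 0.128 without the first MNF_ciHep library). Fbn1 thus changed in 1 origin only by the test, and Fbln2 went in opposite directions. The differences of the steps were 6.87 ± 1.05 for Fbn1 (adjusted p = 0.000185) and 5.54 ± 0.69 for Fbln2 (adjusted p = 3.31e-05). Efemp1 had 2.86, 20.97 and 2.20 TPM in MEF_ciHep, not called against MEF_ciEPC (1.32, adjusted p = 0.214). Without series 1 passage 2, where it was higher than in any other MEF_ciEPC library, the same gene was called higher (4.04, adjusted p = 0.00186). In MNF_ciHep Efemp1 had 390.57 and 155.52 TPM, at least 1210-fold above MNF_ciEPC (adjusted p = 5.04e-05).

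Lox had 0.23, 1.11 and 0.29 TPM in MEF_ciHep, called lower than MEF_ciEPC (-2.36 ± 0.84, adjusted p = 0.0298). Without series 1 passage 2 the direction turned, to 0.80 (adjusted p = 0.278), and without MEF_ciHep library 1 or 3 the gene was not called (adjusted p = 0.078 and 0.0876). In MNF_ciHep the lysyl oxidase gene had 178.11 and 117.44 TPM, and it went from 3 counts to 1744, a ratio of 1400 with an interval of 478 to 6796 (adjusted p = 7.36e-06). Eln stayed near 0 in both. It had 0.35, 0.25 and 0.46 TPM in MEF_ciHep and 1.08 and 0.37 TPM in MNF_ciHep, with 6 and 8 counts over the groups, and was called in neither step (adjusted p = 0.961 and 0.128).

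The cells of the 2 endpoints were then set against each other and against the fibroblasts they came from. In MNF_ciHep 8 of the 10 were higher than in MEF_ciHep, beside 17.8% of all genes called higher. The largest differences were those of Postn (10.68 ± 1.15 on the log2 scale, adjusted p = 5.76e-06) and Lox (7.76 ± 0.80, adjusted p = 2.64e-06), and the smallest among those called was that of Fn1 (1.58 ± 0.29, adjusted p = 0.000414). Thbs1 (1.21 ± 0.60, adjusted p = 0.11) and Eln (1.47 ± 1.44, adjusted p = 0.428) were not called. Against MEF, all 10 were lower in MEF_ciHep, beside 19.3% of all genes called lower, from -2.71 ± 0.28 for Fn1 to -12.06 ± 1.27 for Tnc. Against MNF, 7 were lower in MNF_ciHep, beside 11.6% of all genes. Fbln2 remained 86.2-fold lower (-6.43 ± 0.56, adjusted p = 1.8e-06), Fbn1 41.4-fold (-5.37 ± 0.74, adjusted p = 7.43e-05) and Lox 11.3-fold (-3.49 ± 0.69, adjusted p = 0.00109). Efemp1 (-0.21 ± 0.74, adjusted p = 0.859) and Postn (-1.92 ± 0.81, adjusted p = 0.0746) were not called, and the Efemp1 libraries of both groups overlapped. Fn1 passed the p threshold (adjusted p = 0.0315) but not the 2-fold one (-0.95 ± 0.33), which it passed without the second MNF_ciHep library (-1.38, adjusted p = 0.0167). Thbs2 (-3.04 ± 1.09, adjusted p = 0.0379) was not called without the first (adjusted p = 0.138) or the second (adjusted p = 0.128). A p that misses the threshold does not show that the levels were equal.

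Primary hepatocytes carried one of these genes at a fibroblast level. Fn1 had 3352.24 and 6413.25 TPM in pHep, overlapping MEF, and ranked 16th of 31673 genes. The remaining 9 genes together had 434.5 to 588.6 TPM in pHep. Fbln2 had 109.67 and 166.53 TPM, Lox 100.95 and 111.99 TPM and Tnc 14.03 and 18.02 TPM, with close replicates. Other genes differed between the 2 hepatocyte libraries. Thbs1 had 352.73 and 49.57 TPM, Postn 2.30 and 62.75 TPM, and Fbn1 0.20 and 6.03 TPM. The summed fibroblast markers were 69.9 TPM in the first library and 249 TPM in the second, and the summed macrophage markers 109 and 167 TPM. Of the 8 macrophage markers 7 were higher in the second library, with Lyz2 at 3.7 and 70 TPM, Vsig4 at 0 and 7.0 TPM and Clec4f and Cd5l also at 0 in the first. Cd68 ran the other way, with 104.6 and 62.3 TPM. A part of other liver cells in the pHep levels was not tested. Efemp1 had 8.74 and 17.80 TPM, Eln 0 and 0.96 TPM, and Thbs2 0 and 0.82 TPM.

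Against pHep, 7 of the 10 were lower in MEF_ciHep and none higher, beside 10.8% of all genes called lower. Fn1 was 8.96-fold lower (-3.16 ± 0.30, adjusted p = 1.54e-06), Fbln2 65.0-fold (-6.02 ± 0.50, adjusted p = 4.81e-07) and Lox 168-fold (-7.39 ± 0.80, adjusted p = 4.88e-06), and Tnc, Fbn1, Postn and Thbs1 were the others. Fbn1 (-3.64, adjusted p = 0.00534) and Postn (-6.24, adjusted p = 0.000978) rested on the second pHep library, without which they changed by -0.05 (adjusted p = 1) and -1.17 (adjusted p = 0.563). Thbs1 (-1.77, adjusted p = 0.0312) rested on the first, without which it changed by 0.48 (adjusted p = 0.522), and it was not called with any 1 MEF_ciHep library left out. In MNF_ciHep 4 genes were higher than in pHep, beside 18.4% of all genes: Thbs2 (8.53 ± 1.69, adjusted p = 0.000942), Efemp1 (4.80 ± 0.96, adjusted p = 0.00119), Postn (4.44 ± 0.92, adjusted p = 0.00155) and Fbn1 (2.85 ± 0.73, adjusted p = 0.00554). Fn1 (-1.58 ± 0.33, adjusted p = 0.00139) and Fbln2 (-1.98 ± 0.47, adjusted p = 0.00339) were lower, beside 13.4% of all genes. Tnc, Lox and Thbs1 were not called (adjusted p = 0.567, 0.663 and 0.529). Thbs1 turned with the pHep library, with a change of 1.69 without the first (adjusted p = 0.0269) and -1.43 without the second (adjusted p = 0.0308).

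In the stem cell line of the design fibronectin made up most of the level of the 10 genes. ESC had 684.41 and 882.18 TPM of Fn1, and ESC_EPC had 140.25 and 170.29 TPM. The fall was 5.07-fold (-2.34 ± 0.34, adjusted p = 6.94e-05), beside 14.7% of all genes called lower. In ESC_EPC 3 genes rose from levels near 0, beside 18.6% of all genes called higher. Tnc had 0.12 and 0.04 TPM in ESC and 4.21 and 5.30 TPM in ESC_EPC, 147 counts against 2 (ratio 68.8, interval 18.7 to 574, adjusted p = 0.0168). Eln had 0.22 and 0 TPM and then 3.62 and 3.24 TPM, 57 counts against 1 (ratio 53.4, interval 9.20 to 2145, adjusted p = 0.00655), the highest Eln level outside the fibroblasts. Efemp1 had 1.25 and 0.76 TPM and then 15.84 and 11.14 TPM (3.55 ± 1.35, adjusted p = 0.0458), a call lost with any 1 of the 4 libraries left out (adjusted p = 0.0861 to 0.26). Tnc was not called without the first ESC library (adjusted p = 0.057) or the second (adjusted p = 0.158), nor Eln without the second (adjusted p = 0.132). Fbn1, Thbs1, Thbs2, Fbln2, Lox and Postn stayed under 10 TPM in all 4 libraries and were not called. Without the second ESC library Fn1 alone of the 10 was called.

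MEF_ciEPC and ESC_EPC are endodermal progenitors reached from opposite starting points. Fn1 did not differ beyond its error between them (0.30 ± 0.32, adjusted p = 0.486), and its libraries overlapped. Fbn1 was 30.7-fold higher in MEF_ciEPC (4.94 ± 0.80, adjusted p = 0.000168), with each of its 10 libraries above both ESC_EPC libraries, which had 1.11 and 0.80 TPM. In all 5 genes were called higher in MEF_ciEPC, beside 16.8% of all genes, the others being Thbs1 (2.28, adjusted p = 0.0215), Thbs2 (4.40, adjusted p = 0.0184), Fbln2 (2.63, adjusted p = 0.000635) and Lox (3.30, adjusted p = 0.0179). Eln was lower (-3.53 ± 0.85, adjusted p = 0.00373), beside 14.9% of all genes. Without series 1 passage 2, Thbs2 and Lox were no longer called (adjusted p = 0.28 and 0.901), and Tnc (-3.23, adjusted p = 0.00148) and Efemp1 (-4.11, adjusted p = 0.0027) were called lower beside Eln. Without either ESC_EPC library 3 members were called.

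The makeup of the summed level changed with the cell type, as the plot of shares shows. In MEF the sum was spread over several genes, with 27.7% from Fn1 and 24.0% from Thbs1, and in MNF Fn1 gave 16.7%. In ESC Fn1 gave 98.9% of it, in pHep 89.4%, in MEF_ciHep 87.0%, in ESC_EPC 80.9%, in MEF_ciEPC 64.5% and in MNF_ciEPC 56.5%. In MNF_ciEPC, where the sum was lowest, the next were Fbn1 with 21.7% and Fbln2 with 16.5%. In MNF_ciHep, with a sum of 3962 ± 102 TPM (n = 2) against 631 ± 99.5 TPM (n = 3) in MEF_ciHep, Fn1 gave 54.7% and Postn 24.4%. The order of the groups by mean level differed among the genes. For Fn1 it ran pHep, MEF, MNF, MNF_ciHep, ESC, MEF_ciHep, MEF_ciEPC, ESC_EPC and MNF_ciEPC, with overlapping libraries between the first 3 and between MEF_ciHep, MEF_ciEPC and ESC_EPC as neighbours. For Postn MNF_ciHep overlapped MEF, and for Efemp1 MNF, MNF_ciHep and MEF overlapped as neighbours. For Fbn1 both ciEPC groups and MNF_ciHep overlapped, with means below MEF and above pHep. By mean level MNF_ciEPC was the lowest group for Fn1, Tnc, Thbs2, Eln, Lox and Efemp1, MEF_ciHep for Fbn1 and Fbln2, and ESC for Postn and Thbs1. At those low levels the lowest group overlapped its neighbour for Tnc, Thbs2, Eln and Postn. For Lox and Efemp1, 7 of 10 MEF_ciEPC libraries were at 0, no higher than either MNF_ciEPC library.

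**Figure D4:**
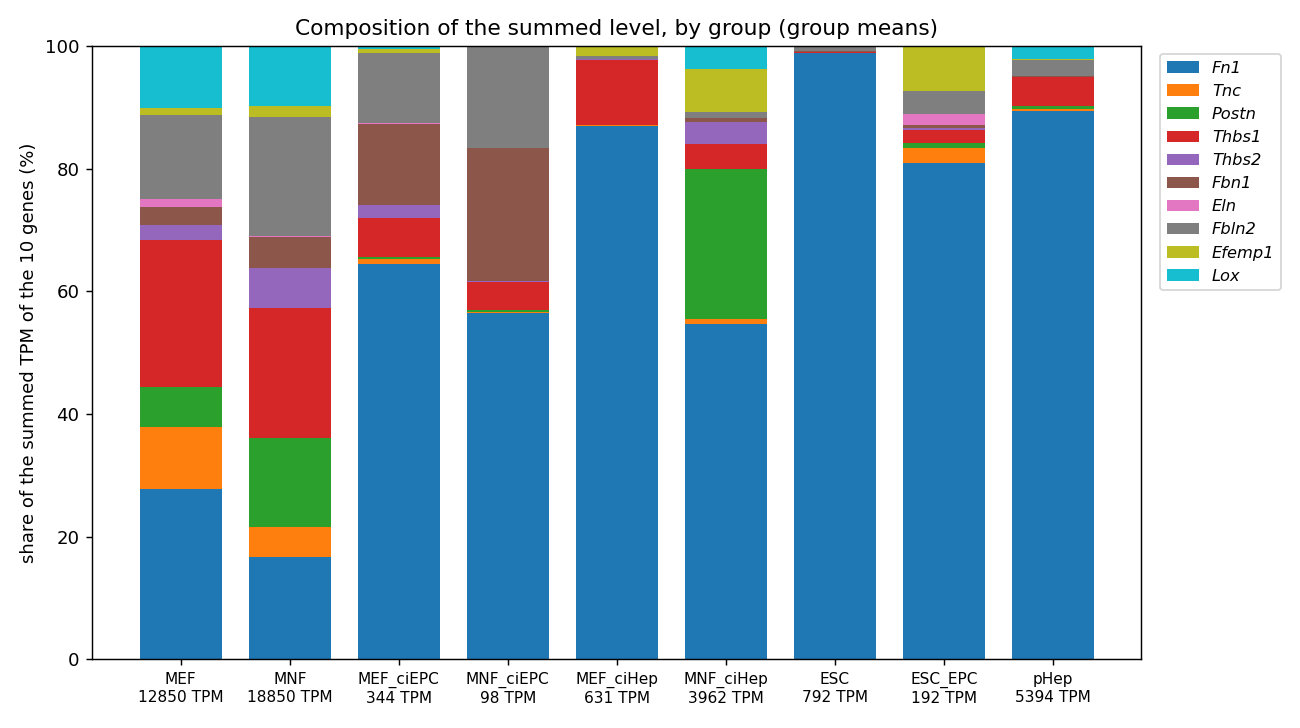
Share of each gene in the summed TPM of the 10 genes, averaged over the libraries of a group, with the mean sum in TPM under each group. Fn1 is 27.7% of the sum in MEF and 16.7% in MNF, and over 50% in each of the other 7 groups.

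The files also give the gene length that RSEM estimated in each library from the isoforms it assigned, a readout apart from the level. Both genes plotted have alternatively spliced forms, Fn1 in its extra domains and Postn in its C-terminal exons. Fn1 had an estimated length of 6192 to 6667 bases in MEF, 6783 to 6809 in MNF and 4694 to 5173 in MNF_ciHep, so the MNF_ciHep libraries lay below both fibroblast groups. The range was 5526 to 6191 in MNF_ciEPC, with its upper value next to the 6192 of the lowest MEF library. It was 3994 to 6574 in MEF_ciEPC, which reached below MNF_ciHep. Estimates were 5891 to 6290 bases in MEF_ciHep and 5881 to 6125 in pHep, which overlapped. Postn had 2903 to 3006 bases in MEF, 2671 to 2674 in MNF and 1920 to 2041 in MNF_ciHep. The read length class of MNF_ciHep differs from that of the fibroblasts and equals that of MEF_ciHep and pHep. A shorter estimated length raises TPM for the same counts, and the length of Thbs2 was 5922 bases in every library with enough counts. Which isoforms were present was not tested.

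**Figure D5:**
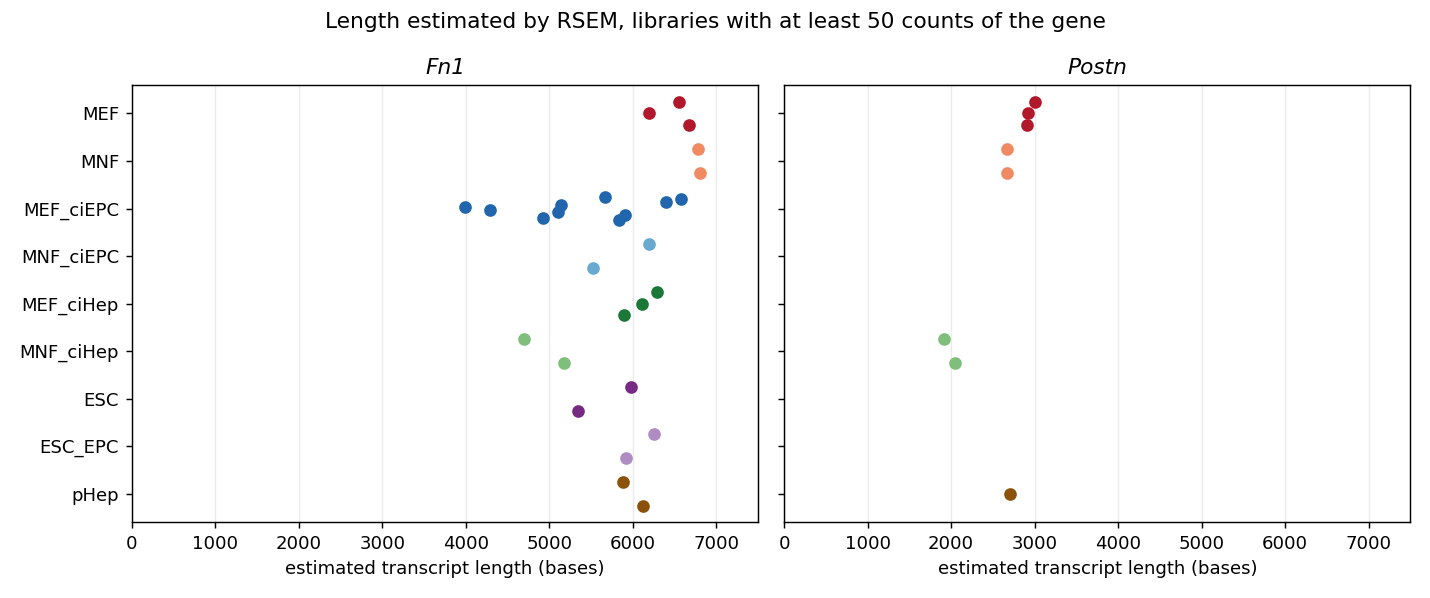
Gene length in bases that RSEM estimated for Fn1 and Postn in each library with at least 50 expected counts of the gene, by group. MNF_ciHep has the lowest Postn lengths, 1920 to 2041 bases, and Fn1 lengths of 4694 to 5173 bases.

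As a description of shared patterns, Pearson correlations of log2(mean TPM + 1) were taken over the 9 group means, which share libraries and depth. Among the members the highest were between Lox and Postn (r = 0.962), Lox and Tnc (0.95) and Tnc and Fbln2 (0.949), and the lowest between Fn1 and Fbn1 (0.366) and Fn1 and Eln (0.473). Among 13276 other genes with at least 10 TPM in a group, those nearest to Lox were Adam12 (0.99), Col5a2 (0.981) and Acvr1 (0.978), and those nearest to Postn were Ifnar1 (0.993), Ch25h (0.991) and Col5a2 (0.986). Thbs2 was nearest to Grem1 (0.984), Hoxb3 (0.976) and Col5a3 (0.975). Col5a2 and Col5a3 encode collagen V chains, and Grem1 an inhibitor of bone morphogenetic proteins. Eln was nearest to the muscle genes Myh11 (0.989), Jph2 (0.977) and Lmod1 (0.969). Fn1 had the weakest nearest gene, Hibch (0.949), followed by Nid1 (0.943), which encodes a basement membrane glycoprotein, and Slc48a1 (0.941). The nearest gene of Tnc was Manea (0.98), of Fbn1 Mettl9 (0.986), of Thbs1 Prkcdbp (0.979), of Fbln2 Slc39a13 (0.983) and of Efemp1 Irs1 (0.977).

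Other genes of the same network moved with the members to different degrees. Of 14 further elastic fibre and microfibril genes, 12 fell and 1 rose in MEF_ciEPC against MEF (median log2 change -5.08), and 12 fell and none rose in MNF_ciEPC against MNF (-7.38). Over all genes 15.8% were called lower and 17.6% higher in MEF_ciEPC against MEF, and 21.9% lower and 18.4% higher in MNF_ciEPC against MNF. Fbln5, which encodes a fibulin needed for elastic fibre assembly, changed by -8.39 ± 0.46 from MEF. The exception was Fbln1, another fibulin, which rose by 2.26 (adjusted p = 0.00011). In MNF_ciHep 12 of the 14 rose over MNF_ciEPC (5.66) and all 14 were above MEF_ciHep (3.85), including Vcan, the gene of the proteoglycan versican (4.30 ± 0.29). Of all genes 19.5% were called higher in MNF_ciHep against MNF_ciEPC and 17.8% in MNF_ciHep against MEF_ciHep. Of 11 cross-linking and processing enzymes, 7 fell from MEF and 8 from MNF in ciEPC, and 6 rose in MNF_ciHep against MNF_ciEPC. Loxl1, a lysyl oxidase relative, changed by -8.76 ± 0.60 in MEF_ciEPC. Bmp1, whose proteinase activates lysyl oxidase, changed by -3.76 there.

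Of 18 thrombospondin, tenascin and matricellular relatives, 10 fell and none rose in MEF_ciEPC, and 13 fell and 1 rose, Comp, in MNF_ciEPC. Over all genes 15.8% fell in MEF_ciEPC and 21.9% in MNF_ciEPC, shares that also stand beside the receptor and TGF-beta counts below. Wisp1, a matricellular CCN family gene, changed by -8.52 in MEF_ciEPC against MEF. In MNF_ciHep against MNF_ciEPC, where 19.5% of all genes rose, 13 of the 18 rose, among them Spp1 (osteopontin) by 9.90 on the log2 scale. In MEF_ciHep against MEF_ciEPC 5 of the 18 rose and 2 fell, where 17.8% of all genes rose and 14.8% fell. In the same step 9 of the 16 receptor genes rose and 2 fell, and 6 of the 12 TGF-beta genes rose and none fell. Of 16 receptors for these glycoproteins, mostly integrins, 12 fell and 1 rose in MEF_ciEPC, and 11 fell and 2 rose in MNF_ciEPC. The collagen receptor gene Ddr2 changed by -5.78 from MEF and -8.74 from MNF. Itgb6, the gene of an epithelial integrin chain that binds fibronectin, tenascin-C and latent TGF-beta, rose in both steps to ciEPC. It rose again in MEF_ciHep by 4.68 ± 0.42, while it was the 1 receptor gene that fell in MNF_ciHep against MNF_ciEPC. Of 12 genes of TGF-beta signalling, which induces many matrix genes, 6 fell in MEF_ciEPC and 8 fell and 1 rose in MNF_ciEPC. Tgfb1 itself changed by -4.22 ± 0.31 from MEF and was 4.58 higher on the log2 scale in MNF_ciHep than in MEF_ciHep.

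Not every abundant matrix gene of the fibroblasts moved like the 10, and 2 examples were chosen after their values were seen. Sparc, the gene of a collagen-binding matricellular protein, had a mean of 3269 TPM in MEF and 5866 TPM in MEF_ciEPC, and 7968 TPM in MNF and 5604 TPM in MNF_ciEPC. It was called in neither step (0.65, adjusted p = 0.277, and -0.64, adjusted p = 0.331). Loxl2, a relative of Lox, had 479 TPM in MEF and 420 TPM in MEF_ciEPC, and 409 TPM in MNF and 312 TPM in MNF_ciEPC, and it was called in neither (-0.33, adjusted p = 0.552, and -0.53, adjusted p = 0.374).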

How the data were processed

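Bulk RNA-seq of 28 mouse libraries in 9 groups was used, with groups from the cell type and title labels. Trizol RNA went into Illumina TruSeq libraries, per the labels. RSEM 1.2.4 and the mm10 build are named in the submitters' processing notes. The aligner and annotation are not given in the sources used here. The deposited tables hold expected counts, which are estimated counts without normalization, TPM, and a gene length and effective length per library. TPM were used as deposited for levels. Expected counts were rounded to whole numbers and tested with edgeR 4.0.16 (R 4.3.3) by the quasi-likelihood test, with TMM scaling and filterByExpr at a minimum count of 10. Libraries ranged from 1439670 to 6133147 counts. All groups entered 1 fit of 20 samples, in which the MEF_ciEPC libraries of a numbered series were summed to 1 sample, a reading of the titles as culture lines. The test was also run on simulated counts with the same spread for all genes and small folds. That run does not cover members with a group near 0 counts or with uneven series. Members and gene lists were chosen with earlier results of these data known. Beside the members, the text names up to 2 called genes with the smallest adjusted p per list and comparison, and the 3 genes most like each member. Sparc and Loxl2 were named outside this rule, as were some marker genes and some genes that ran against their list. Alternatives used DESeq2 1.42.0, limma 3.58.1, other scaling and filters, and left-out libraries. Fitted folds were given where the lower group had more than 3 counts. For 1 to 3 counts the ratio carries an exact 95% interval, and at 0 counts the fold is a bound from 3 counts.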

Additional observations from a re-analysis of the deposited data

Results flagged for a closer look

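The library of MEF_ciEPC series 1 passage 2 lay far above the other 9 libraries of its group for 8 of the 10 genes. Its level was 165.67 TPM for Thbs2, 215.95 for Fbln2, 67.96 for Tnc, 63.75 for Thbs1, 49.01 for Efemp1, 41.83 for Lox, 10.59 for Postn and 2.03 for Eln. The flag was Dixon's ratio, the gap to the next library as a share of the range. Its chance rate of about 1 in 20 groups holds for independent, normally distributed values. These libraries are passages of 2 series, and 7 of 10 were at 0 for Lox and Efemp1. That rate therefore cannot be applied here, and the flag is a description only. The 8 values come from 1 library. Fn1 and Fbn1 were not flagged. For Fn1 this library had 454.05 TPM and series 2 passage 22 had 545.90 TPM, while the remaining 8 had 237.32 TPM at most. Fbn1 had 18.41 TPM there, inside the 6.86 to 62.21 TPM of those 8.

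The fall from fibroblasts to ciEPC differed between the origins for 5 genes in the test of the difference, with an adjusted p of 0.0153 for Fn1, 0.0063 for Thbs2, 0.012 for Fbln2, 0.0147 for Lox and 0.0316 for Efemp1. The step from ciEPC to ciHep differed between the origins for 9 genes. The adjusted p was 4.44e-05 for Fn1, 0.000217 for Tnc, 0.000185 for Fbn1, 0.00022 for Postn, 0.0174 for Thbs1, 0.00012 for Thbs2, 3.31e-05 for Fbln2, 1e-05 for Lox and 0.000787 for Efemp1. The 5 calls of the first test did not all hold. There were 2 without series 1 passage 2, 1 without series 1 as a whole or without MNF_ciEPC library 2, 3 without MNF_ciEPC library 1, and 0 with the 10 MEF_ciEPC libraries as separate samples. In the first test each of the 5 genes had the larger fall from MNF, and in the second each of the 9 had the higher change from MNF. With limma on log2(TPM + 1) the first test called 4 members with the larger fall from MNF and 1 with the smaller.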

How the results depend on the processing

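Over all alternatives 2429 values were recomputed for the 150 pairs of a member and a comparison. Of these 2226 were called in neither the reported nor the alternative fit, or in both with the same sign. With the sign kept, 153 lost the call and 37 gained one, and 13 changed sign with a call in either fit. A change of sign without a call in either fit was not counted. Of the 203 that did not stay, 141 lay in comparisons with MEF_ciEPC. The falls from fibroblasts to ciEPC kept direction and call in 320 of 320 values. The cause of the other changes was not tested.

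Counts of members called moved as follows. For MNF_ciEPC against MEF_ciEPC (4 called) the count was 1 with limma on log2(TPM + 1), 2 with log2(TPM + 0.1), 7 without a filter on low counts, 0 with the 10 MEF_ciEPC libraries as separate samples, and 1 each with only the compared groups, without series 1 passage 2, and without it and series 2 passage 22. The last setting was chosen after seeing the data. For MEF_ciHep against MEF_ciEPC (7) it was 4 with limma at either pseudocount, with separate libraries and with only the compared groups. In that comparison 2 were called higher and 5 lower as reported, and 3 higher and 2 lower without series 1 passage 2. For MEF_ciEPC against ESC_EPC (6) it was 3 with limma at either pseudocount. For the difference of the falls to ciEPC (5) it was 2 with limma at 0.1, 0 with separate libraries, 2 without series 1 passage 2 or without both libraries, and 8 with only the compared groups. With separate libraries it was 4 for MNF_ciHep against MNF (7), 1 for MNF_ciHep against pHep (6) and 2 for ESC_EPC against ESC (4). With only the compared groups it was 5 for MNF against MEF (1), 4 for MEF_ciHep against pHep (7) and 3 for MNF_ciHep against pHep. Leaving out each replicate in turn gave 0 to 5 for MNF_ciEPC against MEF_ciEPC, 3 to 6 for MEF_ciEPC against ESC_EPC, 1 to 3 for ESC_EPC against ESC, 1 to 5 for the difference of the falls and 5 to 9 for that of the steps to ciHep.

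Signs turned for Lox in MEF_ciHep against MEF_ciEPC (0.80 without series 1 passage 2, 1.46 without both libraries), for Tnc in MEF_ciEPC against ESC_EPC (-3.23 and -3.15) and for Lox there (-0.51 without both). With each replicate left out in turn, log2 changes ranged from -3.62 to 0.75 for Lox, -6.07 to 3.27 for Thbs2 and -9.55 to 3.05 for Tnc in MEF_ciHep against MEF_ciEPC. They ranged from -3.00 to 5.35 for Thbs2 and -6.85 to 1.22 for Tnc in MEF_ciEPC against ESC_EPC, and from -9.55 to 1.06 for Tnc in MNF_ciEPC against MEF_ciEPC. For Thbs1 they ranged from -2.64 to 0.48 in MEF_ciHep against pHep and from -1.43 to 1.69 in MNF_ciHep against pHep.

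Same-numbered samples did not deviate together, with 0 of 73 pairs above a correlation of 0.1 and a median of -0.0091, so the numbers were not taken to pair the samples. With the replicate number as a block, 2 members were called for MNF_ciEPC against MEF_ciEPC, and no other count of members moved by over 1.5 times.

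Counts over all genes moved by over 1.5 times in 36 of 490 recomputed values. For MNF_ciEPC against MEF_ciEPC they ran from 58 to 902 lower (560 as reported) and from 41 to 280 higher (156). For MNF against MEF they ran from 629 to 2082 higher (1382) and from 751 to 2121 lower (1254), and for the difference of the falls from 499 to 646 higher (990) and from 428 to 906 lower (1435). Counts of genes lower went to 3776 (2383) in MEF_ciHep against MEF_ciEPC and 2666 (1737) in MEF_ciHep against pHep without a fold minimum. With separate libraries they went to 1101 (1857) in MNF_ciHep against MNF and 1454 (2354) in ESC_EPC against ESC, and in MNF_ciHep against MNF_ciEPC they ran from 1052 to 2808 (1739). Genes higher in MNF_ciHep against pHep went to 1722 (2950) with only the compared groups. Where a group held 0 to 3 counts of a gene, depth limits the value to a bound or to a wide counting interval.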
